A study of Homo sapiens with 19 samples.

Results

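The K185R mutant of E2F1 was set against wild-type (WT) E2F1 in C4-2 cells under doxycycline, using the intervals at which each V5-tagged protein was detected by chromatin immunoprecipitation with sequencing (ChIP-seq). C4-2 is an established, castration-resistant prostate cancer cell line. The K185R group was the tetE2F1K185R-Dox line and the WT group the tetE2F1-Dox line, both grown in RPMI medium with 5% charcoal-stripped serum and given 0.25 ug/ml doxycycline for 3 days, and both precipitated with an anti-V5 antibody. Each group had 2 libraries, and the authors deposited 1 interval list per group. The members are the 22328 intervals of the K185R list and the 64025 of the WT list, 86353 of the 203381 intervals in the series. An interval was called shared when it overlapped the other list by at least 1 base and list-only otherwise. The deposited names of both lists carry the word siRB where the labels say doxycycline, and the groups follow the labels. Whether each tetracycline-controlled line is a clone or a pool, and how much tagged protein each made, is not stated in the labels.

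E2F1 is a transcription factor that binds DNA with a DP partner, mainly at promoters of genes for S-phase entry, DNA replication and nucleotide synthesis. The pocket protein RB binds its activation domain and holds it inactive until cyclin-dependent kinases phosphorylate RB. The lysine that K185R replaces with arginine is a known methylation site of E2F1, written by the methyltransferase SETD7 and removed by the demethylase LSD1. The series asks how RB loss and LSD1 inhibition relate in castration-resistant prostate cancer. RB was mapped in untreated C4-2 and untreated VCaP cells, VCaP being another prostate cancer line.

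Both lists rested on few reads. Each interval came with the authors' fold enrichment (reads at the summit over the local background) and its −log10 p and −log10 q, from which the whole number of reads at the summit could be solved. The genome-wide expectation at a summit, here the background, was 0.188 reads in K185R and 0.243 reads in WT, and the depth was 1.12 reads per kilobase in K185R and 1.40 in WT. The merged WT libraries were thus 1.25 times as deep. The median summit held 5 reads in each list, and 74.7% of K185R and 66.2% of WT intervals held 5 or fewer. Only 944 K185R intervals (4.23%) and 1570 WT intervals (2.45%) reached 10 reads. Because the libraries of a group were merged, the spread between replicates cannot be measured and no difference below has a replicate check or a p-value. The 95% Wilson intervals given with shares cover counting error over intervals only.

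Of the intervals as deposited, a minority of each list overlapped the other, and the share turned on the threshold and on list length. Of the K185R list, 5158 intervals (23.1%, Wilson interval 22.6 to 23.7) overlapped the WT list, and 17170 did not. Of the WT list, 5163 intervals (8.06%, 7.86 to 8.28) overlapped the K185R list, and 58862 did not. In length the K185R list came to 0.349 of the WT list, and in covered bases to 0.328 of it. At −log10 q of at least 5 in both lists, 55.7% of K185R and 18.8% of WT intervals were shared. With the WT list shortened to the length of the K185R list, the shares were 12.1% of K185R and 12.1% of WT. That they were equal was fixed by the setting. As 5158 K185R intervals met 5163 WT intervals, lists of equal length have near-equal shares by construction. The gap between 23.1% and 8.06% is thus that of list length and says nothing of the proteins. Shared intervals had a median fold of 4.92 in the K185R list, against 4.73 for its list-only intervals. In the WT list the medians were 4.83 for shared and 4.69 for list-only intervals. The classes differed more at the top than in the middle: the 95th percentile of the fold was 8.22 for shared and 5.89 for list-only K185R intervals, and 8.85 for shared and 6.20 for list-only WT intervals. Intervals at the edge of the overlap rule were alike on both sides of it. The 253 K185R intervals shared by at most 50 bases had a median fold of 4.73, and the 95 unshared ones with a WT interval within 50 bases had 4.57.

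Intervals with more reads were shared more often in both lists. At matched strength K185R intervals were shared somewhat more often than WT intervals, which were sought in a shorter list. Among intervals whose local background was below 10 times the genome-wide one (low background, 21762 in K185R and 63367 in WT), 90.2% of the 378 K185R intervals with at least 10 reads were shared (Wilson interval 86.8 to 92.8). The WT share was 51.5% of 912 (48.3 to 54.8). Over all low-background intervals 21.3% of K185R and 7.32% of WT were shared. With at least 15 reads the shares were 97.4% of 151 for K185R and 85.1% of 255 for WT. Between 3 and 4 reads they were 18.5% of 8382 for K185R and 5.95% of 19129 for WT. Sharing therefore rose with reads in both lists, with the step between 8 and 15 reads. The same number of reads is, however, a higher multiple of the background in K185R, where 10 reads are 53.1 times it, than in WT, where they are 41.1 times it. Set against the 51.5% of WT intervals with at least 10 reads, K185R intervals with at least 8 reads (42.5 times the background) were shared in 61.0% of 908 cases (57.8 to 64.1). Set against the 90.2% of K185R intervals with at least 10 reads, WT intervals with at least 13 reads (53.4 times the background) were shared in 79.8% of 361 cases (75.3 to 83.6). Most of the gap at an equal number of reads was thus not there at an equal multiple of the background. Only the intervals counted were matched. K185R intervals were still sought among all 64025 WT intervals, and WT intervals among 22328 K185R intervals. The part of list length in the gap that remained was not tested.

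**Figure D1:**
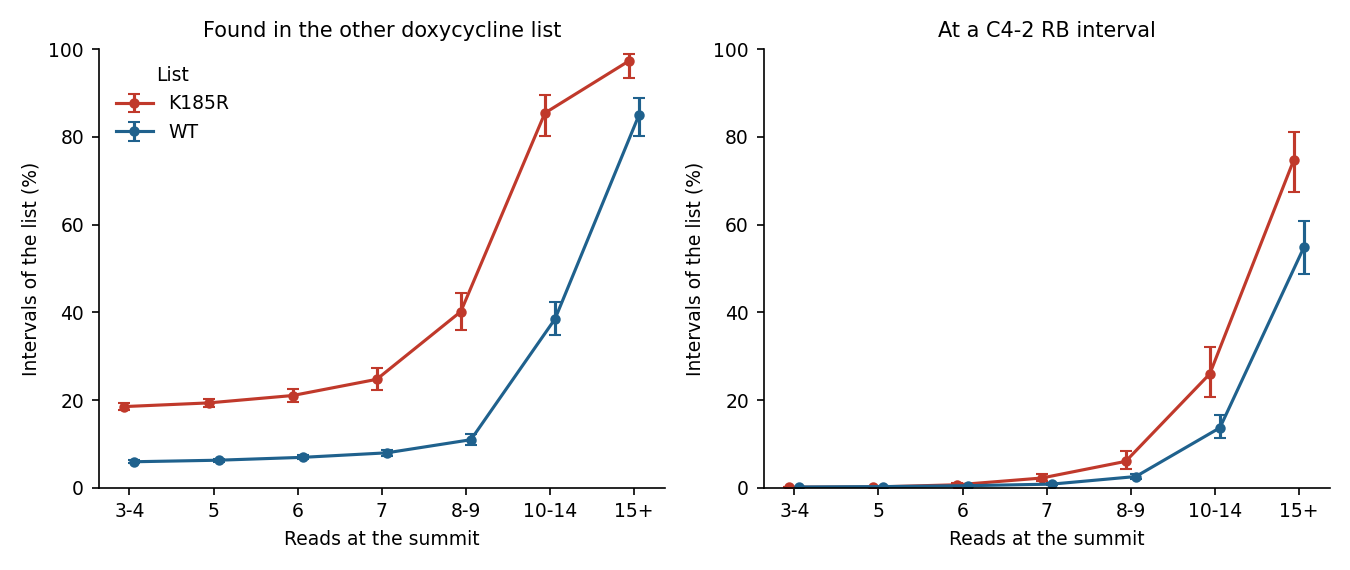
Share of low-background intervals that were found in the other doxycycline list (left) and that lay at a C4-2 RB interval (right), by the number of reads at the summit, for K185R (red) and WT (blue). Points are shares with 95% Wilson intervals; sharing reached 97.4% in K185R and 85.1% in WT at 15 or more reads, and equal reads are a higher multiple of the background in K185R.

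Overlap with RB also rose with summit reads. At C4-2 RB intervals lay 3.26% of all K185R intervals and 1.57% of all WT intervals. Among low-background intervals of 3 to 4 reads these shares were 0.143% in K185R and 0.193% in WT, and among those of at least 15 reads 74.8% (113 of 151) in K185R and 54.9% (140 of 255) in WT. Of these, 99 in K185R and 122 in WT lay at C4-2 RB where VCaP had no low-background RB. Only 14 in K185R and 18 in WT lay where it had. Thus most of the strongest mutant and wild-type intervals coincided with C4-2 RB, mainly RB not common to both lines, whereas the bulk of either list did not.

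Where strong intervals of both proteins overlapped, their summits lay close together and their strength was similar. Pairs were chosen by overlap and by reads in both lists, which by itself favours likeness in both respects. In 273 low-background pairs with at least 10 reads in both lists, the summits lay a median of 9 bases apart (quartiles 3 and 20), and 86.8% lay within 50 bases. In 2079 pairs with at most 5 reads in both, the median distance was 55 bases (quartiles 25 and 99). Summit reads divided by the genome-wide background had a median of 79.7 in K185R and 69.9 in WT over the 273 strong pairs, a median log2 ratio of 0.15 (quartiles -0.07 and 0.37). Across the 273 pairs, K185R and WT values correlated with a Pearson r of 0.80 on the log2 scale and a Spearman rho of 0.70, given as a description since both lists must have called the interval. With at least 10 reads in either list, 78.5% of 520 pairs lay within 50 bases. The quartiles of their log2 ratio were -0.33 and 0.37, and r was 0.67. Across the 2079 weak pairs, whose reads span only 3 to 5, r was 0.0010.

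**Figure D2:**
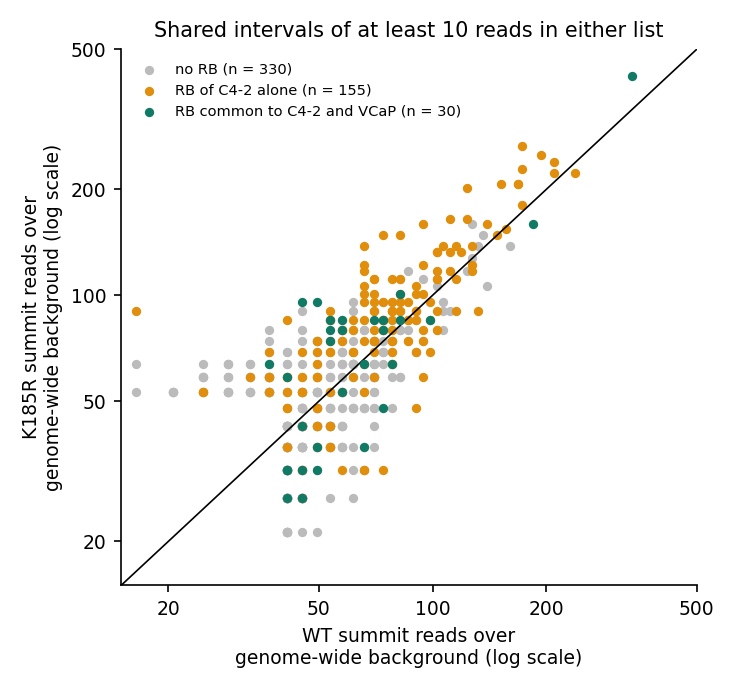
Summit reads over the genome-wide background in WT (x axis, log scale) and K185R (y axis, log scale) for low-background shared intervals with at least 10 reads in either list, coloured by RB class; the line marks equal values. Of 520 pairs, 5 at RB intervals of VCaP alone are not drawn and others coincide, since reads are whole numbers; strong pairs lie along the line.

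The leading shared regions were present throughout the series. The strongest low-background shared interval was chr9:44070573-44070903 (hg19), with 79 reads and a fold of 29.3 in K185R and 82 reads and a fold of 28.1 in WT. It overlapped RB in both C4-2 (112 reads) and VCaP (28 reads), and each of the 10 lists held it. The next was chr18:50319014-50319343, with 47 reads in K185R and 47 in WT. After it came chr8:82754547-82754904, with 50 reads in K185R and 42 in WT. Each of these lay at an RB interval of C4-2 that VCaP lacked and occurred in 9 lists, all but VCaP RB. The same held for chr9:70076600-70076905 (45 reads in K185R and 51 in WT), chr9:42818975-42819285 (42 reads in K185R and 58 in WT) and chr9:78790003-78790307 (39 reads in K185R and 41 in WT). Of the 6 leading shared regions, 4 were therefore on chromosome 9, and 5 carried RB in C4-2 but not in VCaP. Their local background was raised in K185R. It was 9.19 times the genome-wide one at the first, just under the limit of 10, and 4.37 to 6.43 times at the others. All were also called in the untreated V5 lists.

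The strongest K185R-only intervals had few reads, and 4 of the leading 6 recurred in a WT list of another treatment. The first, chr12:20704309-20704571, had 11 reads and a fold of 9.21 in K185R, and the nearest WT interval with doxycycline lay 18501 bases away. Yet the other 6 V5 lists, 3 of K185R and 3 of WT, all had an interval there, as did RB in C4-2 with 67 reads. The second, chr6:17814230-17814513, had 11 reads and occurred in no other list. The same was true of chr3:99717453-99717687, with 9 reads. At chr5:46379527-46379716, with 18 reads on a local background 9.11 times the genome-wide one, the untreated K185R and untreated WT lists also had an interval. Those lists also held chr13:83741906-83742139, with 9 reads, and the untreated WT list held chr7:27949022-27949260, with 9 reads. None of the 6 leading K185R-only regions was thus found in another K185R list and in no WT list. At RB, the next after chr12 and chr5 was chr21:33017892-33018064, with 11 reads, found in 2 further K185R lists and 1 further WT list. From RB sites of both lines, chr1:170501417-170501642, chr12:2364986-2365316 and chr17:31149536-31149889 were picked after values were seen. They had 8, 9 and 11 reads in K185R. Each was found in as many other WT as other K185R lists.

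In libraries 1.25 times as deep, and with 58862 members against 17170, WT-only intervals reached more reads than K185R-only ones. The first, chr1:54411396-54411747, had 19 reads and a fold of 12.2 in WT, overlapped RB in C4-2 (31 reads) and VCaP (19 reads), and was found in the 3 other WT lists and 1 other K185R list. A second region at RB of both lines, chr17:79980686-79981185, had 15 reads and a fold of 10.8 in WT. The 6 other V5 lists all had an interval there, so among the V5 lists it was missing from the K185R list with doxycycline alone. Another, chr19:30302449-30302862, picked from RB sites of both lines after values were seen, had 15 reads and a fold of 10.2 in WT and occurred in the 3 other WT lists and no other K185R list. Away from RB, chr2:136003573-136003884 had 17 reads in WT and was found in 2 other WT lists and 1 other K185R list. At chr14:31696375-31696685, with 22 reads in WT, 2 other WT lists and 3 other K185R lists had an interval. At chr11:4110239-4110561, with 14 reads in WT, the untreated K185R list alone had one. The remaining leading regions lay on chromosome Y, at chrY:28786549-28786839 with 28 reads (RB in C4-2, 3 other K185R lists and 1 other WT list) and chrY:58837415-58837703 with 21 reads. The nearest K185R interval with doxycycline lay only 554 bases from chrY:28786549-28786839. The local background of that region was 8.87 times the genome-wide one.

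Taken over all read numbers away from RB, K185R-only and WT-only intervals recurred alike in the other lists. The other 6 V5 lists (untreated, 50 uM GSK2879552 for 24 hours, and doxycycline followed by GSK2879552, for each protein; GSK2879552 is an LSD1 inhibitor) played no part in the sorting. Of 17077 low-background K185R-only intervals without C4-2 RB, 14.2% were found in the untreated K185R list and 3.92% in the untreated WT list. Of 58441 such WT-only intervals, 14.2% were found in the untreated K185R list and 3.88% in the untreated WT list. For the GSK2879552 lists, K185R-only intervals recurred at 2.83% in K185R and 0.556% in WT, and WT-only intervals at 2.63% in K185R and 0.471% in WT. With doxycycline and GSK2879552, K185R-only intervals recurred at 0.902% in K185R and 0.709% in WT, and WT-only intervals at 0.842% in K185R and 0.712% in WT. The classes thus met each list at nearly the same rate, and the longest list, untreated K185R, took the largest share of both. In none of the 6 lists were 80.1% of K185R-only and 80.0% of WT-only intervals found. Shared K185R intervals recurred more, with 1369 of 4407 (31.1%) found in untreated K185R and 617 in untreated WT. Over all low-background intervals of the K185R list, whatever their class, 18.5% were found in K185R untreated, 5.24% with GSK2879552 and 2.41% with both agents, and 1524 of 21762, 2.06% and 2.61% in the WT lists of the same treatments. For the WT list the matching shares were 15.7%, 3.53% and 1.38% in the K185R lists and 5.13%, 1.18% and 1.54% in the WT lists.

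At equal read thresholds away from RB, K185R-only intervals recurred more often than WT-only intervals, but not at matched multiples of the background. With at least 8 reads, 10.7% of 336 K185R-only intervals (Wilson interval 7.84 to 14.5) and 6.56% of 2866 WT-only intervals (5.71 to 7.53) were found in untreated WT. In K185R with both agents the shares were 4.46% of K185R-only (2.72 to 7.23) and 1.64% of WT-only intervals (1.24 to 2.17), and in WT with both agents 4.46% of K185R-only (2.72 to 7.23) and 2.02% of WT-only intervals (1.57 to 2.61). The Wilson intervals of the classes, which cover counting error over intervals and no spread between libraries, did not overlap in these 3 lists. They did overlap in untreated K185R, with 21.1% of K185R-only and 19.6% of WT-only intervals found, and in WT with GSK2879552, with 6 of the 336 K185R-only and 43 of the 2866 WT-only intervals. They overlapped slightly in K185R with GSK2879552, where 7.44% of K185R-only (5.09 to 10.8) and 4.40% of WT-only intervals (3.70 to 5.21) were found. With at least 10 reads, 48.1% of 27 K185R-only and 36.6% of 393 WT-only intervals recurred in untreated K185R, and 25.9% of K185R-only and 16.5% of WT-only intervals in untreated WT. Equal reads are a higher multiple of the background in K185R here too. At least 8 K185R reads match at least 10 WT reads (42.5 and 41.1 times the background), and WT-only shares were then higher in each of the 6 lists. K185R-only and WT-only shares were 21.1% and 36.6% in untreated K185R, and 10.7% and 16.5% in untreated WT. They were 7.44% and 12.5% in K185R and 1.79% and 4.58% in WT with GSK2879552. With both agents they were 4.46% and 4.58% in K185R, and 4.46% and 6.62% in WT. At this match the Wilson intervals of the classes were apart in untreated K185R only (17.1 to 25.8 and 32.0 to 41.5). They overlapped in every other list. Both classes were found more often in the untreated K185R list, which held 55681 intervals, than in the untreated WT list, which held 15099. Across megabase windows outside chromosomes Y and M, the numbers of low-background K185R-only and WT-only intervals correlated with a Spearman rho of 0.52 over 2888 windows, a description, since windows share mappable length and copy number. The ratio of K185R-only to WT-only intervals was 0.292 genome-wide and ranged from 0.270 on chromosome 16 to 0.327 on chromosome 19 over 23 chromosomes (1 to 22 and X). For each interval on chromosome 18, gene-rich chromosome 19 held 0.761 list-only and 0.765 shared intervals in K185R, and 0.726 list-only and 0.765 shared intervals in WT, against 2.87 for RB in C4-2.

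At RB sites a WT interval was found more often than a K185R interval. Over all 9146 C4-2 RB intervals, 8.53% had a K185R interval and 11.8% a WT interval. At 8709 low-background RB sites, 532 (6.11%) had a K185R interval and 806 (9.25%) a WT interval. Both lists had an interval at 469 of these, K185R without WT at 63 (0.723%) and WT without K185R at 337 (3.87%). Of the 469, 96.2% also had an interval in untreated K185R and 92.1% in untreated WT. Whether a call marks the induced protein was not tested. Many of the shared hits were V5 intervals of high background: without those, K185R was at 283 sites (3.25%) and WT at 523 (6.01%), with 225 held by both, 58 by K185R alone and 298 by WT alone. The RB sites were then split by whether VCaP also had RB there at low background. At the 5212 sites common to C4-2 and VCaP, K185R was at 105 (2.01%) and WT at 245 (4.70%), with 78 held by both, 27 by K185R alone and 167 by WT alone. At the 3497 sites of C4-2 alone, K185R was at 427 (12.2%) and WT at 561 (16.0%), with 391 held by both, 36 by K185R alone and 170 by WT alone. Thus 74.3% of common sites with a K185R interval also had a WT interval, while 31.8% of those with a WT interval also had a K185R interval. At sites of C4-2 alone the matching shares were 91.6% of sites with a K185R interval and 69.7% of sites with a WT interval. Without V5 intervals of high background, K185R was at 64 common sites (1.23%) and WT at 203 (3.89%), with 24 held by K185R alone and 163 by WT alone. At sites of C4-2 alone K185R was then at 219 (6.26%) and WT at 320 (9.15%), with 34 held by K185R alone and 135 by WT alone. A longer WT list meets more sites, and with the WT list shortened to the length of the K185R list, 30 common sites were held by K185R alone and 101 by WT alone.

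V5 intervals of any background were found most often where RB was strongest, in both lists. The RB sites of each kind were ranked by RB −log10 q and cut into 4 groups of equal size. In the lowest group of common sites, 0.460% had a K185R interval and 2.07% a WT interval. In the highest group, 5.99% had a K185R interval (Wilson interval 4.82 to 7.41) and 10.7% a WT interval, 140 of 1303. At RB sites of C4-2 alone the lowest group had 1.71% with K185R and 2.51% with WT, and the highest 36.6% with K185R (33.5 to 39.9) and 43.0% with WT (39.8 to 46.3). WT exceeded K185R in each of the 8 groups. The RB fold itself had a median of 7.92 at common sites held by K185R alone, 6.83 at those held by WT alone, 9.14 at those held by both and 5.91 at those held by neither.

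**Figure D3:**
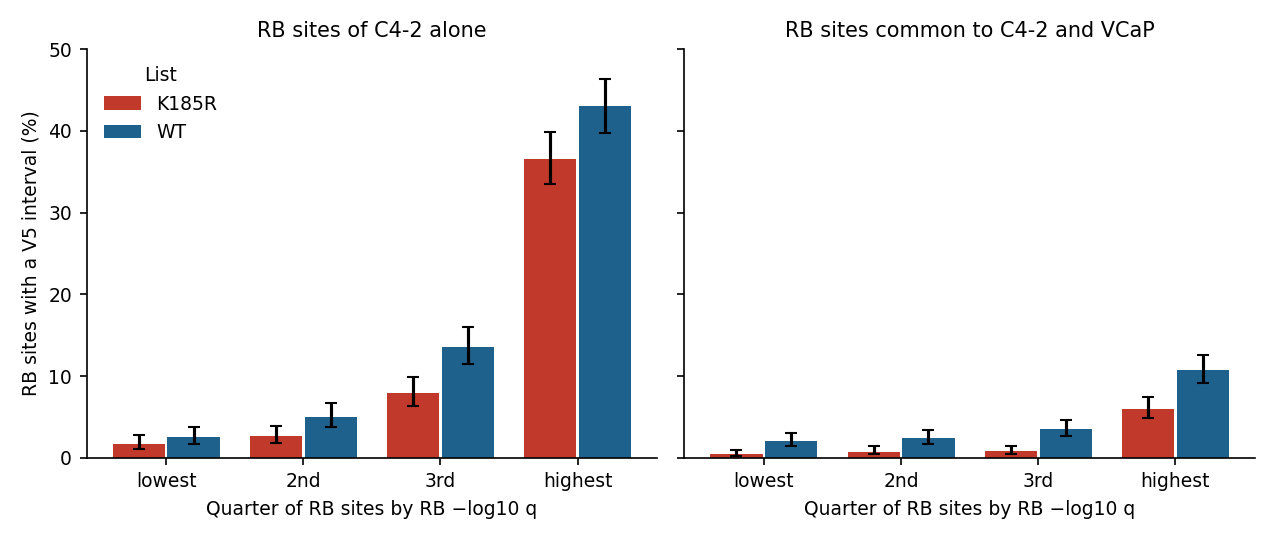
Share of low-background C4-2 RB sites with a K185R (red) or WT (blue) interval, by rank of RB −log10 q in 4 groups of equal size, for RB sites of C4-2 alone (left) and common to C4-2 and VCaP (right). Bars are shares with 95% Wilson intervals; the highest group reached 36.6% in K185R and 43.0% in WT at sites of C4-2 alone, and 5.99% in K185R and 10.7% in WT at common sites.

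At RB sites common to both lines, the WT-only class was found more often in the other WT lists than in the other K185R lists. Of the 167 common sites with WT alone under doxycycline, the other K185R lists had an interval at 34 (20.4%) untreated, 30 with GSK2879552 and 4 (2.40%) with both agents. The other WT lists had one at 86 (51.5%) untreated, 81 (48.5%) with GSK2879552 and 88 (52.7%) with both agents. More K185R than WT lists held the site in 7 cases, more WT than K185R lists in 114, as many of each in 12, and none in 34. The 27 common sites with K185R alone leaned the same way and not the opposite one. K185R lists had an interval at 9 untreated, 11 with GSK2879552 and 4 with both agents, and WT lists at 15, 16 and 14. More K185R lists held 3 of the 27, and more WT lists held 15. Even of the 4940 common sites with neither protein under doxycycline, 37 were held by more K185R lists and 715 by more WT lists. The 3 other lists of each protein differ in length, with 55681, 9899 and 3498 intervals in K185R (untreated, GSK2879552, both agents) and 15099, 2805 and 3874 in WT, and the part of length in these counts was not tested.

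At RB sites of C4-2 alone, sites held by both proteins leaned to the K185R lists and sites held by neither to the WT lists. Of 170 sites with WT alone under doxycycline, 42 were held by more K185R lists and 62 by more WT lists. Of 36 sites with K185R alone, 13 were held by more K185R lists (36.1%, Wilson interval 22.5 to 52.4) and 10 by more WT lists (27.8%, 15.8 to 44.0). These counts are too close to give a direction. The 2900 with neither protein leaned to WT, with 72 held by more K185R lists and 245 by more WT lists. Of the 391 with both proteins, 99 were held by more K185R lists and 54 by more WT lists. These 391 sites were found in most lists, in 96.9% of cases in untreated K185R and 90.8% in untreated WT. All 6 other lists held 174 of the 391. The 78 common sites held by both recurred likewise, in 92.3% of cases in untreated K185R and 98.7% in untreated WT, and all 6 lists held 54.

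**Figure D4:**
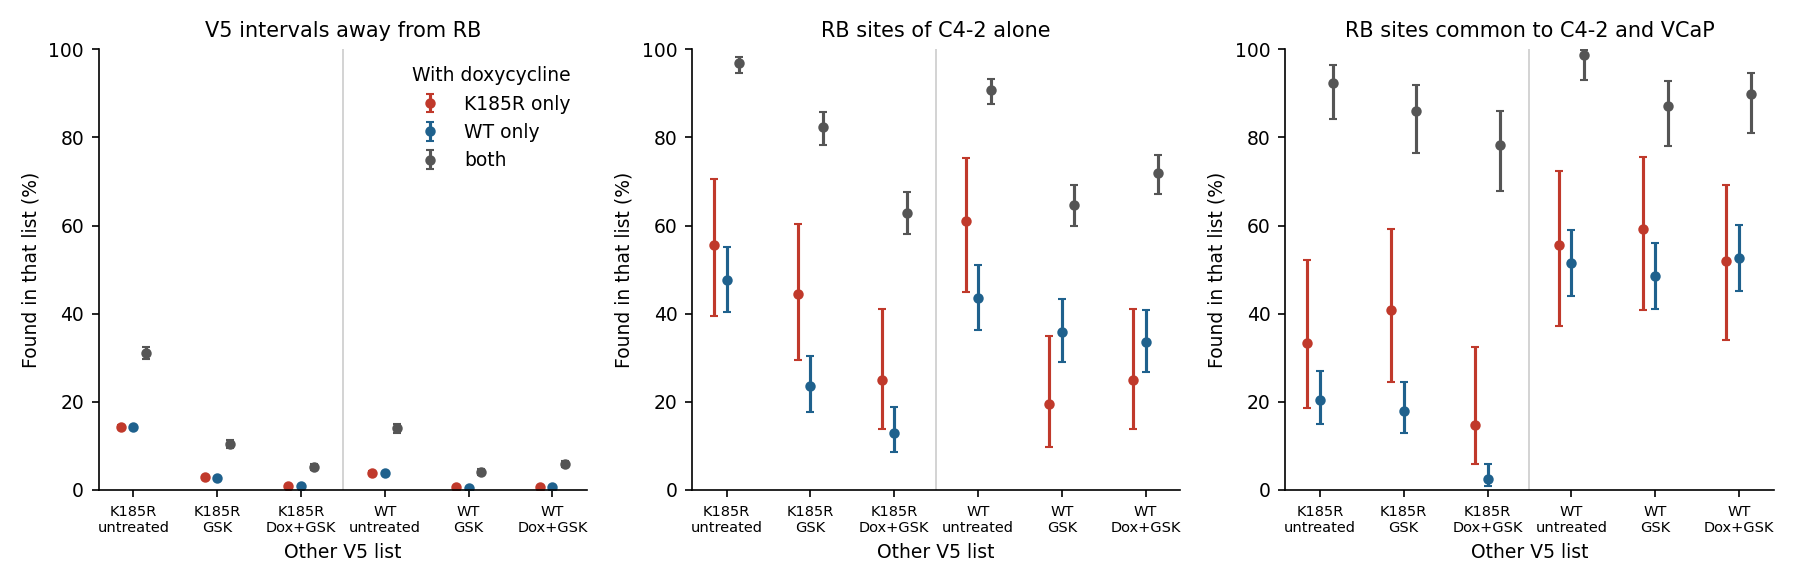
Share of low-background V5 intervals away from C4-2 RB (left), of RB sites of C4-2 alone (middle) and of RB sites common to C4-2 and VCaP (right) that had an interval in each of the 6 other V5 lists, by whether they were held under doxycycline by K185R alone (red), WT alone (blue) or both (grey). Error bars are 95% Wilson intervals; red and blue coincide on the left, while on the right both classes were found more often in the WT lists.

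At common RB sites too, the gap in sharing was narrower at matched strength. Among low-background intervals with at least 10 reads there, 20 of 21 K185R intervals were shared with WT, and 28 of 48 WT intervals were shared with K185R (58.3%, Wilson interval 44.3 to 71.2). At RB sites of C4-2 alone, 142 of 151 K185R intervals (94.0%) and 153 of 182 WT intervals (84.1%, 78.1 to 88.7) were shared. At 8 K185R reads, the multiple of the background nearest to 10 WT reads, 25 of 32 K185R intervals (78.1%, 61.2 to 89.0) were shared at common sites and 161 of 172 (93.6%, 88.9 to 96.4) at sites of C4-2 alone. At common sites the Wilson intervals of K185R and WT then overlapped, on few intervals. The other match sets at least 10 K185R reads against at least 13 WT reads. At common sites 95.2% of 21 K185R intervals (77.3 to 99.2) and 69.2% of 26 WT intervals (50.0 to 83.5) were then shared. These Wilson intervals overlapped as well. In both matches WT intervals were still sought in the shorter list. Where an interval was shared, its strength was close in both: over 30 common-site pairs with at least 10 reads in either list, the median log2 ratio of K185R to WT was 0.0023, with K185R higher in 15 and WT higher in 15. Over 155 pairs at sites of C4-2 alone it was 0.20, with K185R higher in 104 and WT higher in 51. Pairs are seen only where both lists called an interval, so these ratios say nothing of sites missing from one list.

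RB of the second cell line gave the same order, with the WT list again the longer. The shortened WT list was not set against VCaP RB. Of the 17026 VCaP RB intervals, 1.42% had a K185R interval and 2.63% a WT interval. At the 5009 low-background VCaP sites that C4-2 also had, K185R was at 139 (2.78%) and WT at 286 (5.71%). These sites repeat the common sites above and are not a separate set. At the 11807 found in VCaP alone, K185R was at 18 (0.152%, Wilson interval 0.0965 to 0.241) and WT at 71 (0.601%, 0.477 to 0.758), with 9 held by both.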

How the data were processed

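ChIP-seq intervals for V5-tagged E2F1 (K185R and WT) and RB were used. Tools listed in the submitters' processing notes are MACS2 2.1.0, BWA 0.7.9a, SAMtools 1.2 and FastQC 0.11.9, with build hg19; settings and any control are not stated there. The authors deposited narrowPeak lists, whose fold enrichment is a linear ratio, whose p and q are −log10 values, and whose score, as deposited by the authors, is the whole part of 10 times −log10 q. Per the interval names, libraries of each V5 group were merged. Depth was 1.12 reads per kilobase in K185R and 1.40 in WT.

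Summit reads and local background were solved in Python 3.11.15 (scipy 1.17.1) from the fold, with 1 read added to both terms, and the Poisson p, and tested on simulated data. Overlap counts were checked with bedtools 2.31.1 and were equal. The named regions were those of highest −log10 q at low background, 6 per class and 3 per class at C4-2 RB, with 2 per list at any background. Members and lists were chosen with earlier results of these data known. Comparisons by promoter, gene list and motif were planned and not run: intervals were not assigned to genes or read as sequence here. Replicate numbers in the labels could not be used.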

Additional observations from a re-analysis of the deposited data

How the results depend on the processing

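Each list stands for merged libraries, so no library could be left out. No paired analysis was possible because each group is 1 merged list. The planned promoter and gene list alternatives were not run. At −log10 q of at least 5, 55.7% of the K185R and 18.8% of the WT list were shared, the length ratio was 0.340, and 7.04% of C4-2 RB sites had a K185R and 8.48% a WT interval. At common RB sites 8 were then held by K185R alone and 46 by WT alone. With the WT list shortened to the length of the K185R list, 12.1% of K185R and 12.1% of WT intervals were shared, 10.4% of C4-2 RB sites had a WT interval, and WT alone held 101 common sites. Of 14082 WT intervals tied at the last −log10 q of 3.22, a seeded draw kept 5100. With 50% of both intervals required, shares were 18.2% of K185R and 6.36% of WT, 5.61% of RB sites had K185R and 6.54% WT, and the share was 85.7% of strong K185R intervals. Without high-background intervals 21.3% of K185R and 7.31% of WT were shared, the length ratio was 0.343, and 3.25% of RB sites had K185R and 6.01% WT. At matched multiples of the background, chosen after seeing the data, 61.0% of strong K185R intervals (at least 8 reads) and 79.8% of strong WT intervals (at least 13 reads) were shared. The share of RB sites with K185R was below that with WT in each setting run for both. Recurrence in other lists, the 4 groups of RB strength and the ratios within pairs were run under no alternative. Most calls rest on 5 or fewer reads, and the part of depth in the lists was not tested.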

Other observations

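Intervals of high local background, at least 10 times the genome-wide one, numbered 566 in K185R and 658 in WT, and 523 of each were shared (92.4% of K185R and 79.5% of WT). At C4-2 RB intervals lay 79.3% of those of K185R and 75.5% of those of WT, and all 10 lists had an interval at 115 of each. The strongest was chr1:121483993-121485497 in K185R, with 331 reads on 192.1 times the background, where WT had 345 reads. At chr3:196625529-196625888 K185R had 147 reads and WT 156. The strongest of WT, chr9:69710707-69711368, had 179 reads in K185R and 206 in WT. Chromosome Y stood apart: 108 of its 142 K185R intervals (76.1%) and 107 of its 178 WT intervals (60.1%) were shared, and 59 in K185R and 65 in WT had high background.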
